A study of Mus musculus with 55 samples.

Results

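The 10 immediate early genes described here (Fos, Jun, Junb, Atf3, Egr1, Klf6, Ier2, Myc, Btg2 and Gadd45g) were chosen by symbol among 37620 annotated genes, and all 10 were found. They were measured by RNA-sequencing in livers of 55 untreated male mice from 29 lines of the Collaborative Cross (CC), a panel of recombinant inbred lines bred from 8 founder strains. A total of 8 lines had 1 mouse, 16 had 2 mice and 5 had 3 mice. The labels give ages of 8.0 to 11.9 weeks and body weights of 12.8 to 38.0 g. All mice shared open top cages, a regular light and dark cycle and free access to chow, and the labels name no treatment. The lines stood at differing inbreeding generations, so mates of a line need not be fully identical.

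Immediate early genes are transcribed within minutes of a stimulus such as a growth factor, handling, injury or heat, from factors that are already present in the cell. Most of them encode transcription factors whose mRNAs and proteins are short-lived. In liver they are well known from regeneration after partial hepatectomy and from tissue that was handled or lost its blood supply before freezing.

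RefSeq promoters (build GRCm38.p6, 250 bases before to 50 after the start site) were searched for 7 of the 10 members, and not for Egr1, Ier2 and Myc. The 6 that follow belong to 2 sets of genes, Fos, Junb and Btg2 on the one hand and Jun, Atf3 and Klf6 on the other, whose members were correlated within their set among mates of a line, as described further down. They are shown 5′ to 3′ on the strand of the gene. Capitals mark TGACNTCA, where N is any base, and TGACG on either strand. They cover the cyclic AMP response element TGACGTCA, to which proteins of the CREB and ATF families bind, with variants and a shorter part of it. The full TGACGTCA was found only in Btg2, whereas Jun and Klf6 held TGACATCA and the other match in Btg2 was TGACCTCA.
Fos, chr12:85473640-85473939, plus strand: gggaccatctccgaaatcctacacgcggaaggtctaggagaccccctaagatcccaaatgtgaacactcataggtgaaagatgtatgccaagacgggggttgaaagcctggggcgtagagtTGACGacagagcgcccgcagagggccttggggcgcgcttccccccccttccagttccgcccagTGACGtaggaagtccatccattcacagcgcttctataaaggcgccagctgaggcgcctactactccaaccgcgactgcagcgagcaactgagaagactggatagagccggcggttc
Junb, chr8:84978699-84978998, minus strand: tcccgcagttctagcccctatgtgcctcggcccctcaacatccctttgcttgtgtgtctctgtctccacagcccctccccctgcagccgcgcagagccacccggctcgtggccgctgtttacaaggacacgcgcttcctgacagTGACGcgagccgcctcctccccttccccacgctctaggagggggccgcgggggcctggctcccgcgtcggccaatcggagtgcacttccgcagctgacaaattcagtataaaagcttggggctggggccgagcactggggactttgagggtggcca
Btg2, chr1:134079106-134079405, minus strand: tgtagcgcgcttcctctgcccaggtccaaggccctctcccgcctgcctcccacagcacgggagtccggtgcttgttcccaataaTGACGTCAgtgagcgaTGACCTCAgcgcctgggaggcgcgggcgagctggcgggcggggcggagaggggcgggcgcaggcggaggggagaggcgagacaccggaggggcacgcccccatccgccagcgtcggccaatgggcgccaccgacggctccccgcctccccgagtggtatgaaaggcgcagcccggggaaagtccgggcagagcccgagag
Jun, chr4:95052173-95052472, minus strand: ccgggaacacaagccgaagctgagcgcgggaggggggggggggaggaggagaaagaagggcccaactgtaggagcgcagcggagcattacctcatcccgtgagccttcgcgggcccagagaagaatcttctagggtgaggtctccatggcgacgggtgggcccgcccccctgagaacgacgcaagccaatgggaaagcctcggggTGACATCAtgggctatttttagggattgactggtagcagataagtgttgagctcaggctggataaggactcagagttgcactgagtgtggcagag
Atf3, chr1:191183284-191183583, minus strand: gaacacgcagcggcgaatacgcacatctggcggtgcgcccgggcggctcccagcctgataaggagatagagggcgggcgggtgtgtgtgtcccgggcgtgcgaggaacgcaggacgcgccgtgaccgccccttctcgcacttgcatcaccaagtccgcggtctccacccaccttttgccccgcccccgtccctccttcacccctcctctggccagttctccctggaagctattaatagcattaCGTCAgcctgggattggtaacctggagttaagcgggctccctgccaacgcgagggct
Klf6, chr13:5861239-5861538, plus strand: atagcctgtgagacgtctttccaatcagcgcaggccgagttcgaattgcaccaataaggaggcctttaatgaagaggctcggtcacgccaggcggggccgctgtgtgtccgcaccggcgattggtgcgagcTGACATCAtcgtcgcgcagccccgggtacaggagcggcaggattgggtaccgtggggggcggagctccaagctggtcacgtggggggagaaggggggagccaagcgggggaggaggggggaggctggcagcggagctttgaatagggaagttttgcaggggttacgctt

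Of the 7 member promoters, 3 held TGACNTCA (Btg2, Jun and Klf6), against 8.83% of 32851 promoters of the same length. The shorter TGACG was found in Fos, Junb, Btg2 and Atf3, against 20.8% of promoters. It overlaps the first motif in Btg2. Jun and Klf6 shared the 8 letters TGACATCA, 45 and 119 bases before the start site. The letters TATAAA were found in Fos, Gadd45g and Junb, against 13.6% of promoters, 33 and 27 bases before the start site in Fos and Gadd45g and at the start site itself in Junb. Within the searched window, none of these 7 promoters matched the CArG box (1.63% of promoters) or TGANTCA (7.81%). Sequence farther from the start site was not searched, so whether Fos or another member has such a site there was not tested. Motifs this rare among all promoters can easily be missing from 7, so their absence is no result about the members. Btg2 matched the zinc finger motif GCGNGGGCG (5.55%). The promoters of Egr1, Ier2 and Myc were not searched. A match describes the letters in this window and was not tested as a binding site, and these promoters come from the reference genome, not from the CC lines.

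The members are compact genes. On NCBI build 37, the build of the files, the median span of the members was 3581 bases, against 15420.5 bases for 22380 protein-coding genes. Fos lies at chr12:86814840-86818223, Jun at chr4:94715725-94718913, Junb at chr8:87500811-87502617 and Atf3 at chr1:192994175-193007219. Egr1 lies at chr18:35020861-35024638, Klf6 at chr13:5860735-5869639, Ier2 at chr8:87185230-87186751 and Myc at chr15:61816946-61821929. Btg2 lies at chr1:135971747-135975697 and Gadd45g at chr13:51942047-51943837. Junb and Ier2 have a single exon, whereas Atf3 has up to 5. The levels below are summed over all annotated transcripts of a gene, from its start to its end.

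Levels are given as FPKM, fragments scaled by RSEM for transcript length and for sequencing depth, so that they can be compared between genes. Each mouse had 20.5 to 33.95 M fragments assigned to genes (median 27.7). All 10 members passed the expression filter, as did 15285 genes in all. No sequencing or library batch is named in the labels, and no pair of mice had identical counts. The liver label held, with Alb, the albumin of plasma, between 8656 and 50170 FPKM. The mice labelled IL-1052 and IL-2750 did not separate by line, since mouse 4302 of IL-1052 correlated more closely across genes with mice 4429 and 4431 of IL-2750 (Spearman's rho 0.9792 and 0.9795) than with its mate 4303 (0.9438). Mouse 4303 was in turn closest to mouse 4430 of IL-2750 (0.9754), so each label is used below only as the name of a library. Without both lines all 10 members were still called as different among lines. The following values describe whole liver, in which fewer cells of a type and less RNA per cell cannot be told apart.

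**Figure D1:**
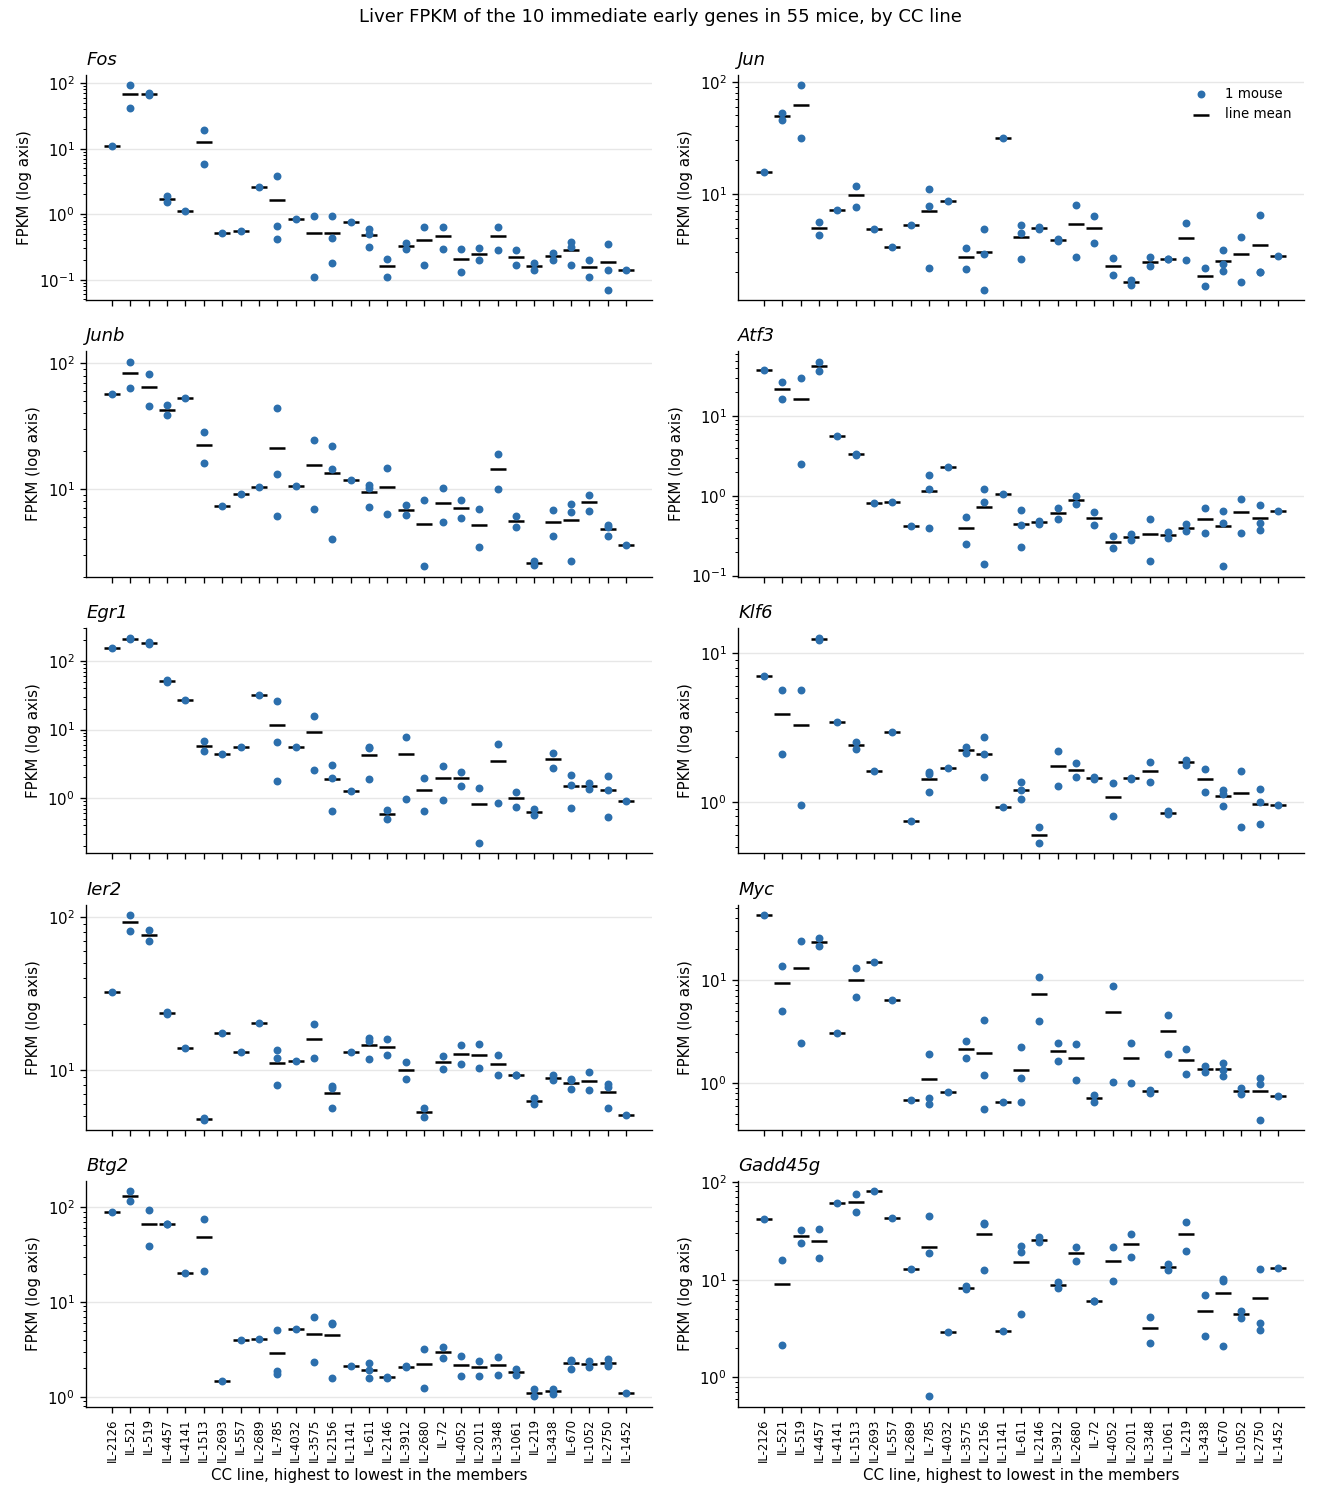
FPKM (log axis) of each member in each of 55 mice, with lines on the x axis from highest to lowest by the mean standardised level of the 10 members. Dots are mice and black bars are line means. Lines IL-2126, IL-521, IL-519 and IL-4457 stand at the left with high values in most genes, Ier2 is lowest in IL-1513, and Gadd45g follows another order.

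The members were highest in IL-519, IL-521, IL-4457, IL-1513 and the single mice of IL-2126 and IL-4141, and stood at low levels in most other lines. Over the 21 lines that had mates (47 mice in all), every one of the 10 members passed the edgeR quasi-likelihood F test for a difference among lines, where 88.5% of all tested genes passed. Adjusted p-values ranged from 1.13e-16 for Ier2 to 0.00639 for Gadd45g. A count of 10 of 10 is near that background and is no result about the members, whose levels follow gene by gene.

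Fos, which pairs with Jun proteins to form the AP-1 transcription factor, was nearly silent in most livers. Its FPKM had a lowest value of 0.07, a median of 0.36 and a highest value of 93.55, and 12 of 55 mice exceeded 1 FPKM. It stood at 71.83 and 67.04 in IL-519, 42.30 and 93.55 in IL-521, 19.24 and 5.90 in IL-1513, 1.52 and 1.90 in IL-4457, and 10.95 in IL-2126, which has 1 mouse. The mice of IL-519 and IL-521 lay above every other mouse without overlap. Against the mean of the other 20 lines, Fos was higher by 7.31 ± 0.288 (SE, log2) in IL-519, 6.98 ± 0.292 in IL-521 and 4.42 ± 0.352 in IL-1513 (edgeR, adjusted p = 7.07e-18, 3.30e-17 and 1.08e-10). In IL-4457 it was higher by 1.62 ± 0.5003 (adjusted p = 0.0220). Without either mouse of that line, which leaves 1 mouse, it was not called, with a log2 difference of 1.765 or 1.451. The libraries labelled IL-2750 were lower, with a log2 difference of -2.44 ± 0.782 (adjusted p = 0.0276), which was not called without any 1 of their 3 mice (adjusted p = 0.0509 to 0.106). Fos had a median of 20 fragments per mouse, which limits the precision at this end.

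Jun, the partner of Fos and a target of the JNK stress kinases, was never silent. Its lowest FPKM was 1.39, its median 3.77 and its highest value 93.33. The mice of IL-519 had 93.33 and 31.44 and those of IL-521 had 52.92 and 45.76. The single mouse of IL-1141 had 31.52, just above mouse 2 of IL-519, although its Fos of 0.75 lay near the bulk of the mice. Jun was called higher in IL-519 (4.15 ± 0.273, log2) and IL-521 (3.51 ± 0.291) and in no other line (edgeR, adjusted p = 1.77e-12 and 2.58e-10). In IL-4457, with 5.57 and 4.28 FPKM, it was not called. IL-2011 was called lower, at 0.334 times the other lines (log2 difference -1.58, adjusted p = 0.0324). Without either of its mice, which leaves 1 mouse in the line, it was not called, with a log2 difference of -1.71 or -1.47.

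Junb, an AP-1 subunit that can restrain Jun, had a lowest FPKM of 2.41, a median of 8.11 and a highest value of 103.3. It reached 83.04 and 46.19 in IL-519, 64.20 and 103.29 in IL-521, 38.98 and 46.55 in IL-4457 and 57.13 in IL-2126. The single mouse of IL-4141 had 52.56. These mice stood apart from the rest except for 1 mouse of IL-785 with 43.80, whose mates had 13.20 and 6.09. IL-521, IL-519 and IL-4457 were higher by 2.99 ± 0.359, 2.90 ± 0.363 and 2.18 ± 0.394 (log2, edgeR, adjusted p = 3.39e-07, 7.07e-07 and 0.000160). IL-219, with 2.67 and 2.46 FPKM, was called lower at 0.206 times the other lines (log2 difference -2.28, adjusted p = 0.0134). With either of its mice left out, which leaves 1 mouse in the line, the log2 difference was -2.33 or -2.25 and the call was lost.

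Atf3, a factor of the Atf family that is induced by many kinds of cell stress, was near silent in most livers, as Fos was. Its lowest FPKM was 0.13, its median 0.63 and its highest value 48.47, and 16 of 55 mice exceeded 1 FPKM. Its order of lines differed from that of Fos. IL-4457 had 36.81 and 48.47 and IL-2126 had 37.55, whereas IL-521 had 27.26 and 16.67 and the mates of IL-519 differed 12.1-fold, at 30.60 and 2.54. Against the other lines, IL-4457 was higher by 5.92 ± 0.305 (log2), IL-521 by 4.72 ± 0.334, IL-519 by 4.59 ± 0.338 and IL-1513 by 1.88 ± 0.457 (edgeR, adjusted p = 5.90e-15, 8.06e-12, 2.08e-11 and 0.00369). No line was called lower.

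Egr1, a zinc finger factor that responds to growth signals through serum response factor, had the widest spread of line means among the members. Its lowest FPKM was 0.22, its median 2.16 and its highest value 214.8. IL-521 had 207.74 and 214.77, IL-519 had 190.98 and 174.24, IL-2126 had 157.24 and IL-4457 had 49.48 and 52.96. The mates of these lines agreed closely although the gene varied strongly elsewhere, for instance 26.50, 6.47 and 1.77 in IL-785. IL-519, IL-521 and IL-4457 were higher by 6.01 ± 0.396, 5.95 ± 0.397 and 3.99 ± 0.458 (log2, edgeR, adjusted p = 1.77e-12, 2.39e-12 and 1.52e-07). In IL-1513, with 6.69 and 4.86 FPKM, Egr1 was not called. IL-2146 and IL-219 were called lower, at 0.135 and 0.143 times the other lines (adjusted p = 0.0363 and 0.0462), neither of which held without single mice. Without either mouse of the line, which leaves 1 mouse, the log2 difference stayed negative. It was -2.652 or -3.113 in IL-2146 (-2.885 with both) and -3.009 or -2.651 in IL-219 (-2.809 with both). Leaving out single mice of other lines also moved IL-219 past the threshold, as with mouse 1 of IL-2680 (adjusted p = 0.0504).

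Klf6, a zinc finger factor of the Krüppel-like family, moved over a smaller range. Its lowest FPKM was 0.53, its median 1.47 and its highest value 12.61. Both mice of IL-4457, with 12.36 and 12.61, lay above all other mice, followed by IL-2126 with 7.08. The mates of IL-519 (5.63 and 0.95) and of IL-521 (5.67 and 2.09) disagreed. IL-4457 was higher by 3.13 ± 0.227 (log2, edgeR, adjusted p = 1.45e-11). IL-519 and IL-521 were called at 1.22 ± 0.285 and 1.18 ± 0.285 (adjusted p = 0.00259 and 0.00340), but without mouse 1 of the line the difference was -0.58 in IL-519 and 0.27 in IL-521 (adjusted p = 0.304 and 0.741), with the mates left at 0.95 and 2.09 FPKM. The direction in IL-519 thus rested on 1 mouse. IL-2146 was called lower at 0.348 times the other lines (adjusted p = 0.00543). Without its mouse 1 it was not called, with a log2 difference of -1.312, against -1.521 with both mice.

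Myc, a basic helix-loop-helix factor that drives growth and cell cycle entry, had a lowest FPKM of 0.44, a median of 1.58 and a highest value of 43.27. The highest mouse was that of IL-2126, followed by IL-4457 (21.63 and 25.85) and mouse 1 of IL-519 (24.15), whose mate had 2.43. IL-2146, low for Egr1 and Klf6, had 4.0 and 10.72. IL-4457 was higher by 3.54 ± 0.410, IL-519 by 2.80 ± 0.445, IL-1513 by 2.03 ± 0.485, IL-521 by 1.96 ± 0.491 and IL-2146 by 1.67 ± 0.507 (log2, edgeR, adjusted p = 1.79e-07, 2.83e-05, 0.00320, 0.00476 and 0.0194). Without mouse 1 of the line the difference was 0.29 in IL-519, 1.10 in IL-521 and 1.56 in IL-1513 (adjusted p = 0.879, 0.360 and 0.142), and without mouse 2 of IL-2146 it was 0.76 (adjusted p = 0.569).

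Ier2, a small nuclear protein of the immediate early class, was the member with the least spread among mates. Its lowest FPKM was 4.74, its median 10.94 and its highest value 103.0. IL-521 had 81.30 and 102.98, IL-519 had 82.42 and 69.11, IL-2126 had 32.19 and IL-4457 had 23.12 and 23.87, and these lines stood above all other mice. At the other end IL-1513 had 4.83 and 4.74, the lowest values of all 55 mice, in a line where Fos and Btg2 were high. The log2 difference was 2.97 ± 0.117 in IL-519 and 2.97 ± 0.117 in IL-521, 1.10 ± 0.145 in IL-4457 and -1.49 ± 0.193 in IL-1513 (edgeR, adjusted p = 7.07e-18, 7.07e-18, 1.63e-06 and 1.24e-06). Further lines were called lower with smaller differences, namely IL-2680 (0.393 times the other lines), IL-219 (0.467), IL-2156 (0.559), IL-2750 (0.631) and IL-670 (0.713), the last of which was not called without its mouse 2 or 3 (adjusted p = 0.0987 and 0.0581).

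Btg2, an antiproliferative gene that is a target of p53 and of stress signals, had a lowest FPKM of 1.01, a median of 2.31 and a highest value of 147.2. IL-521 had 116.5 and 147.2, IL-519 had 93.68 and 38.86, IL-4457 had 66.23 and 66.75, IL-1513 had 75.18 and 21.33, IL-2126 had 89.64 and IL-4141 had 20.46. These 10 mice stood clear of the other 45. The log2 difference was 5.09 ± 0.230 in IL-521, 4.34 ± 0.244 in IL-519, 4.25 ± 0.246 in IL-4457 and 3.57 ± 0.262 in IL-1513 (edgeR, adjusted p = 2.27e-16, 4.33e-14, 8.66e-14 and 1.86e-11). IL-219, IL-3438, IL-2146 and IL-611 were called lower, at 0.225, 0.249, 0.363 and 0.449 times the other lines (adjusted p = 0.00304, 0.00428, 0.0257 and 0.0278). Of these, IL-611 was not called without any 1 of its mice (adjusted p from 0.0512 to 0.116). IL-2146 was not called without either mouse and IL-3438 was not without its mouse 2, which leaves 1 mouse in the line. The log2 difference was then -1.408 or -1.486 in IL-2146 (-1.461 with both mice) and -1.932 in IL-3438 (-2.004 with both). The mean of the other lines includes the high lines, so these ratios are not ratios to a typical line. The line means of IL-219, IL-3438, IL-2146 and IL-611 were 1.105, 1.15, 1.605 and 1.923 FPKM, against a median line mean of 2.263.

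Gadd45g, a growth arrest and DNA damage gene that is also induced by cytokines, did not follow the other members. Its lowest FPKM was 0.64, its median 13.19 and its highest value 79.92, in the single mouse of IL-2693. IL-519 had 23.61 and 32.14 and IL-521 had 2.14 and 15.93, within the range of the other lines. Mates of IL-785 had 44.89, 0.64 and 18.59, a 70.1-fold range. Only IL-1513, with 74.56 and 49.23, was called, with a log2 difference of 2.26 ± 0.522 (edgeR, adjusted p = 0.00232), which was 1.97 without its mouse 1 (adjusted p = 0.0708).

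**Figure D2:**
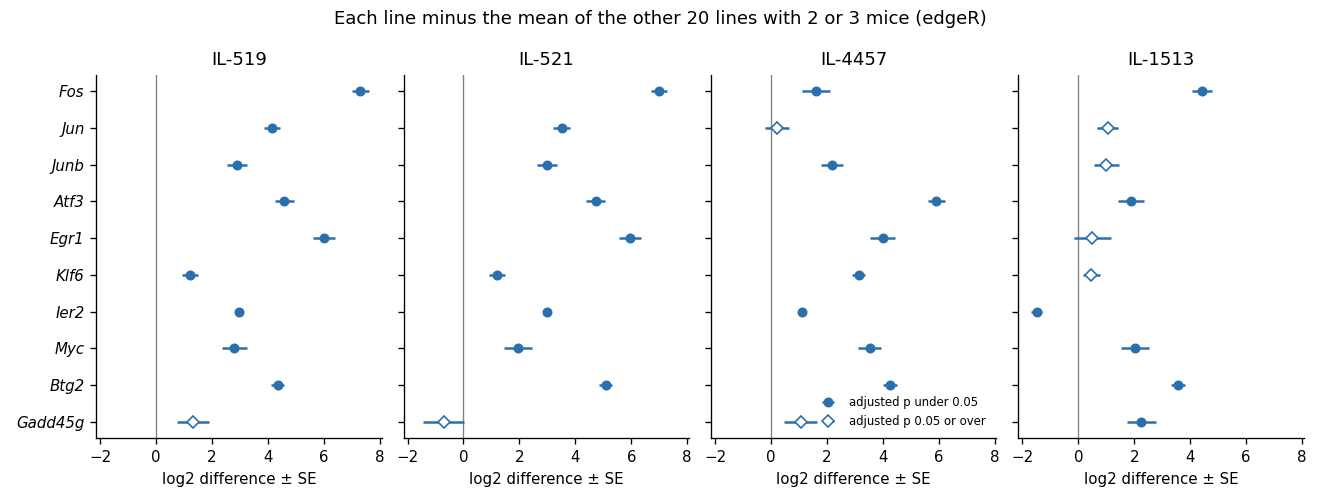
Log2 difference of each member between a line and the mean of the other 20 lines with 2 or 3 mice, for the 4 such lines with the highest levels. Points are edgeR estimates with SE bars, filled where the adjusted p is under 0.05. In IL-519 and IL-521 the 9 genes other than Gadd45g are called higher, in IL-4457 Klf6 and Atf3 exceed their values in IL-519, and in IL-1513 Ier2 falls below 0.

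Counted over lines, 51 of the 210 tests of a member in a line were called, 35 higher and 16 lower. Over all genes, 11% of such tests were called higher and 7.15% lower. IL-519 and IL-521 each had 9 of 10 members called higher, where 9.56% and 10.3% of all genes were. IL-4457 had 8 members called higher, against 18.4% of all genes, and IL-1513 had 5 called higher and 1 lower, against 14.1% and 9.76%. The median log2 difference of the members was 3.56 in IL-519, 3.25 in IL-521, 2.66 in IL-4457 and 1.46 in IL-1513, while the median of all tested genes was 0.0195, -0.0103, 0.000407 and -0.00617. On the low side IL-219 had 4 members called (Junb, Egr1, Ier2 and Btg2), against 6.33% of all genes. IL-2146 had 3 called lower and Myc higher, against 19.6% and 22.7%. The other lower calls were Fos and Ier2 in IL-2750 (5.76% of genes), Jun in IL-2011 (7.88%), Btg2 in IL-3438 (3.34%) and IL-611 (6.29%), and Ier2 in IL-2156 (9.11%), IL-2680 (6.45%) and IL-670 (7.26%). All lower calls were made against a mean to which the high lines contribute, so they do not measure the distance from a typical line. Fewer lower calls were made without the highest lines, as given further down.

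The 4 lines did not share a single profile. IL-519 and IL-521, in a comparison chosen after the values were seen, differed in 0 of 10 members, where 15% of all genes differed between them (edgeR, adjusted over 6 pairs of lines, smallest adjusted p of a member 0.161, and 0 of 10 at an unadjusted p under 0.05, the smallest being 0.0549, both for Gadd45g). For Fos the difference was 0.31 ± 0.649 (SE, log2) and for Ier2 0.000377 ± 0.221, so that Ier2 was set much more precisely than Fos. IL-519 exceeded IL-4457 by 5.42 ± 0.8002 in Fos, 3.75 ± 0.651 in Jun and 1.78 ± 0.229 in Ier2, while Klf6 was lower by 1.83 ± 0.449 (adjusted p = 1.10e-05, 9.34e-05, 1.40e-06 and 0.00356). The other 6 members were not called between these lines, where 27.7% of genes were. Against IL-521, IL-4457 differed in Fos, Jun, Ier2 and Klf6 as well (4 of 10, where 26.7% of genes differed), with Klf6 3.63 times higher in IL-4457. Against IL-1513, IL-519 was higher in Fos, Jun, Atf3, Egr1 and Ier2 (5 of 10, where 17.7% of genes differed), with Egr1 38.0 times and Ier2 19.0 times higher. For Atf3 this direction rested on mouse 1 of IL-519 (30.60 FPKM), since mouse 2 (2.54) lay below both mice of IL-1513 (3.25 and 3.40). IL-521 was higher than IL-1513 in these 5 and in Btg2 and lower in Gadd45g (7 of 10, where 17.4% of genes differed). IL-1513 had 6.37 times the Fos of IL-4457 but 0.181 times its Ier2 and 0.0998 times its Egr1 (adjusted p = 0.00766, 1.36e-08 and 0.0209, where 27.5% of genes were called).

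Lines with 1 mouse have no spread of their own and were not tested. That of IL-2126 had 8 members at more than 4 times their median over mice, as many as any mouse. That of IL-4141 had 5, among them Junb, Egr1, Btg2 and Atf3. IL-2693 had 2 (Gadd45g with 79.92 FPKM and Myc with 15.15) and IL-2689 had 2 (Egr1 with 31.88 and Fos with 2.57). IL-1141 had 1 (Jun with 31.52), as did IL-557 (Myc with 6.42). The remaining mice with 4 or more such members were all from IL-519, IL-521, IL-4457 and IL-1513, making 10 mice in total.

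Few gaps between neighbours in the order of the lines exceeded the spread expected from mates, most of them near the top. Lines were ordered by mean log2(FPKM + 0.1), and a gap was set against 1 SE computed from the variation among mates. Ordering puts lines of similar level side by side, so small gaps where lines are crowded follow from the ordering. A gap above or below that spread is no test of whether lines differ. For Ier2, IL-521 lay above IL-519 by 0.278 against a spread of 0.256, while the edgeR difference between them was 0.000377 ± 0.221 (SE, log2). Fos had 2 of 28 gaps above that spread, between IL-521 and IL-2126 and between IL-1513 and IL-2689. Ier2 had 4, of which 3 lay among its highest 4 lines and 1 near the low end, between IL-670 and IL-2750 (a gap of 0.2152 against a spread of 0.209 on the log2 scale), and Btg2 had 3, all among its highest 7 lines. Myc and Gadd45g had 0, although both passed the edgeR test for a difference among lines.

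The spread between lines was wide for every member, and the spread among mates was wide for all but Ier2. The SD of line means, on the log2(FPKM + 0.1) scale, had a median of 1.49 over the members and 0.376 over all tested genes. Among mates of a line the SD had a median of 0.775 over the members and 0.261 over all genes. Egr1 had the widest spread between lines (2.43) and Gadd45g the widest among mates (1.21), whereas Ier2 had an SD among mates of 0.256, close to that of the median gene. In fold terms, mates differed by a median of 2.85-fold for Egr1, 2.21-fold for Myc and 2.18-fold for Fos, and by 1.27-fold for Ier2, 1.31-fold for Klf6 and 1.31-fold for Btg2.

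**Figure D3:**
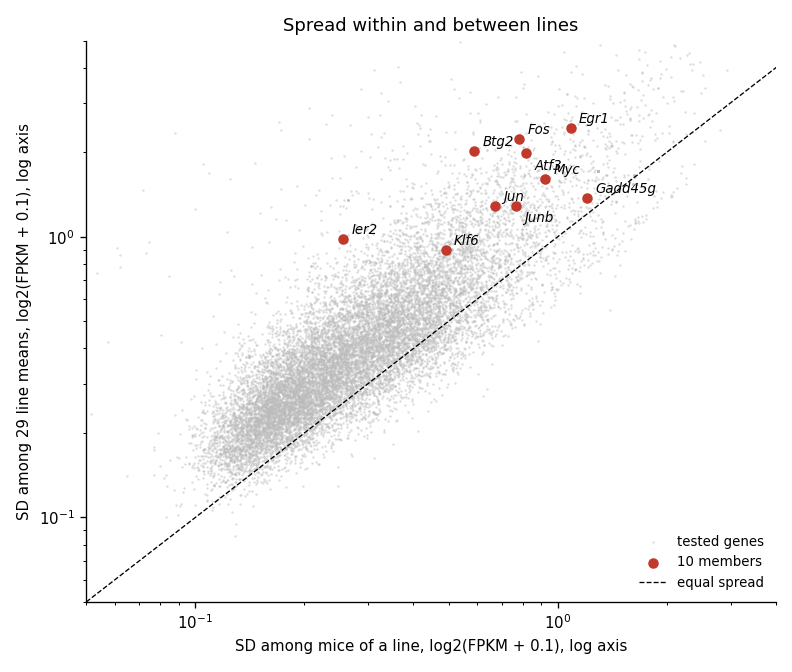
SD among mates of a line (x axis) against SD among the 29 line means (y axis), in log2(FPKM + 0.1) units on log axes, for all tested genes in grey and the 10 members in red. The dashed line marks equal spread. All members lie above it and at high values on both axes, except that Ier2 has the spread among mates of a typical gene.

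The intraclass correlation, the share of the variance that lies between lines, was 0.935 for Ier2, 0.913 for Btg2, 0.884 for Fos, 0.830 for Atf3, 0.804 for Egr1, 0.747 for Jun, 0.710 for Klf6, 0.678 for Junb, 0.666 for Myc and 0.356 for Gadd45g. Its median over the members was 0.775, against 0.571 over all tested genes. These shares were high beside the wide spread among mates given above, as the spread between lines was wider still, and that of Gadd45g was the lowest. Without IL-519, IL-521, IL-2126, IL-4457, IL-1513 and IL-4141, the median was 0.320, against 0.498 for all genes in the same mice. These are the 6 lines highest in these members, picked after the values were seen. Leaving them out lowers the members' spread between lines by the choice itself, so the fall below all genes is no result about the members. In the remaining lines the intraclass correlation was 0.727 for Ier2, 0.618 for Klf6, 0.0983 for Atf3 and 0.134 for Junb. In that set Atf3 and Jun no longer passed the test among lines (edgeR, adjusted p = 0.266 and 0.0591), and the other 8 members did.

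The high levels ran along the numbers that the sample titles give to the mice, whose meaning the labels do not state. Ordered by the mean standardised level of the 10 members, the 8 mice numbered from 4264 to 4272 were all among the 11 highest of 55. They belong to IL-4141, IL-4457, IL-519, IL-521 and IL-785. The next mouse before them (4247) ranked 21 and the next after them (4274) ranked 48. The remaining 3 of the 11 were the mouse of IL-2126 (4234) and those of IL-1513 (4546 and 4547). In 19 of 21 lines with mates the numbers of all mates lay within 2 of each other, so that line and number cannot be told apart in most lines. IL-785 had mates far apart in number, and there mouse 4272 had 3.84 FPKM of Fos, 26.50 of Egr1 and 43.80 of Junb, while mice 4434 and 4477 had 0.65 and 0.42 of Fos, 6.47 and 1.77 of Egr1, and 13.20 and 6.09 of Junb. Atf3 and Myc were also highest in mouse 4272, with 1.84 against 1.22 and 0.39 and with 1.93 against 0.71 and 0.63. Klf6 had 1.58 in mouse 4272 against 1.55 and 1.16, and Ier2 had 13.58 against 11.93 and 7.96, so that mouse 4434 followed closely. Jun was highest in mouse 4434, with 7.70 in mouse 4272 against 11.09 and 2.17. Mice 4272, 4434 and 4477 were 8.1, 8.3 and 9.0 weeks old and weighed 15.8, 15.4 and 12.8 g. Number, age and weight thus cannot be told apart in IL-785, the only line whose mates differed in age. In IL-3575, whose mates were 14 numbers apart and both outside the run, mouse 4297 had 15.99 FPKM of Egr1 and 24.40 of Junb and mouse 4283 had 2.57 and 6.89, so that mates also differed without a mouse of the run. The 3 members called higher in IL-785 (Fos, Junb and Egr1, against 11.7% of all genes) were not called without mouse 4272. The meaning of the numbers is not given, this run of numbers was picked after the values were seen, and its part in the members' levels was not tested.

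**Figure D4:**
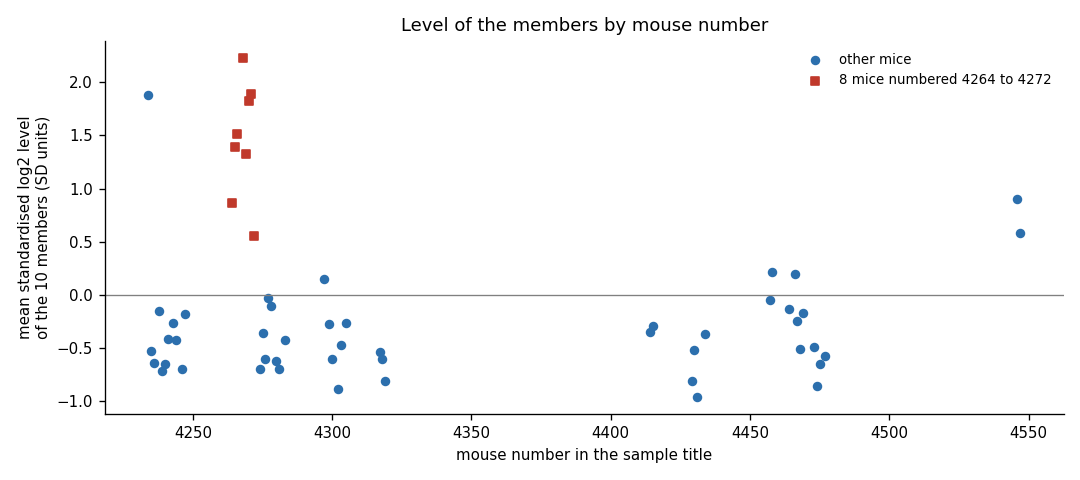
Mean standardised log2 level of the 10 members (y axis, SD units) by the mouse number in the sample title (x axis). Red squares are the 8 mice numbered 4264 to 4272, all at 0.553 or above, and most other mice lie below 0.

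No relation with age, body weight or depth was detected. Of 30 correlations between a member's line mean and these measures across 29 lines, 0 passed at an adjusted p of 0.05 (permutation test with 100000 permutations), 0 had a raw p under 0.05 by Pearson's r or Spearman's rho, and the smallest raw p was 0.351 by Pearson's r and 0.169 by Spearman's rho. The largest Pearson's r in size was -0.181, between Jun and body weight (Spearman's rho -0.249, and Pearson's r -0.204 without the 2 lines farthest from the median weight). Over the 30 relations, leaving out the 2 farthest lines gave larger values for some, such as -0.417 for Myc with body weight (-0.0988 with all lines), 0.377 for Junb with depth (0.149) and 0.308 for Egr1 with depth (-0.0256), and no p was computed for these.

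Across line means the members rose and fell together. Of 45 pairs, 36 passed (Pearson's r over 29 line means of log2(FPKM + 0.1), permutation test with 100000 permutations, adjusted over the 45 pairs). The median r was 0.679, and 34 pairs had r above 0.5, which 3.02% of the r values of members with other genes did. The closest pairs were Atf3 and Btg2 (r = 0.923, rho = 0.572), Junb and Btg2 (r = 0.915, rho = 0.788) and Junb and Egr1 (r = 0.888, rho = 0.790). Each had an adjusted permutation p of 3.75e-05, from an unadjusted p of 1e-05, the smallest these permutations can give. Without the 2 lines farthest from the median of the first gene, r was 0.899, 0.871 and 0.828. Gadd45g passed only with Myc (r = 0.676, rho = 0.703, adjusted p = 0.000169) and Klf6 (r = 0.388, rho = 0.427, adjusted p = 0.0436). Since the 6 high lines lie apart from the others, r within the other 23 lines was computed as well. There 11 pairs passed and the median r was 0.213. The 6 lines were picked by the members' own levels, and leaving them out lowers r across lines by the choice itself. The fall therefore does not show in which lines the relation lies.

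Among mates fewer pairs were related. In deviations of the 47 mice from their line means, 11 of 45 pairs passed and the median r was 0.385. Differences between the labelled lines are removed there. The mice labelled IL-1052 and IL-2750 did not separate by line, so their deviations may still hold such differences. A total of 18 pairs had r above 0.5, against 1.16% of the r values with other genes. Within lines, 8 of the passing pairs joined Fos, Junb, Egr1, Ier2 and Btg2, and 3 joined Jun, Atf3 and Klf6. No passing pair linked these sets, and Myc and Gadd45g were in none. The sets were not sharply apart. Between them r reached 0.538 for Atf3 and Btg2, 0.518 for Junb and Atf3 and 0.509 for Jun and Junb. Inside the first set, Egr1 and Ier2 had r = 0.543 and did not pass either (adjusted permutation p = 0.0798). That a pair passed and another did not is no test of a difference between them.

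In the first set, Junb and Btg2 had r = 0.835 (rho = 0.836, adjusted permutation p = 0.00090), Fos and Btg2 had r = 0.808 (rho = 0.769, adjusted permutation p = 0.0018), Junb and Egr1 had r = 0.792 (rho = 0.744, adjusted permutation p = 0.00045) and Fos and Junb had r = 0.786 (rho = 0.671, adjusted permutation p = 0.00231). In the second set, Atf3 and Klf6 had r = 0.779 (rho = 0.720, adjusted permutation p = 0.0021), Jun and Atf3 had r = 0.727 (rho = 0.766, adjusted permutation p = 0.0018) and Jun and Klf6 had r = 0.585 (rho = 0.636, adjusted permutation p = 0.00335). Without the 2 mice farthest from the median of the first gene these 7 correlations lay between 0.590 and 0.778. Fos and Jun, the partners in AP-1, had r = 0.501 within lines (rho = 0.466, adjusted permutation p = 0.0798), against 0.844 across line means. The count of passing pairs within lines stayed at 11 in the 39 mice outside the 6 high lines. In those mice r was 0.628 for Fos and Jun, from different sets, and 0.5545 for Egr1 and Ier2 of the first set.

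**Figure D5:**
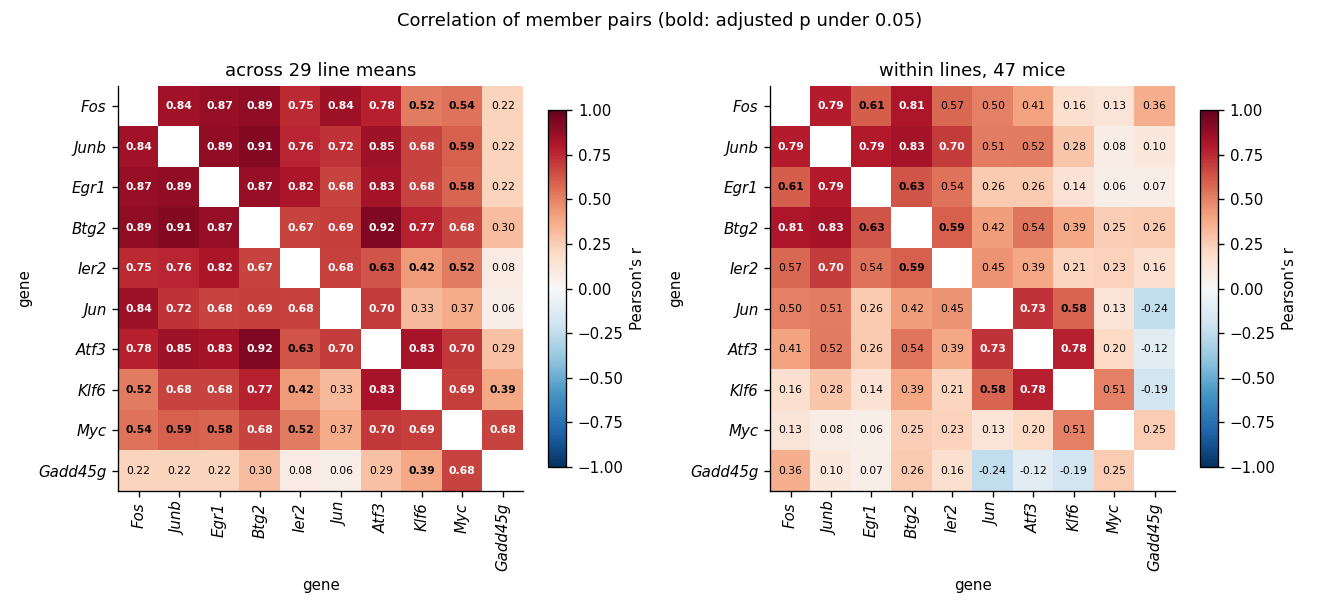
Pearson's r of each pair of members across 29 line means (left) and in deviations from the line mean of 47 mice (right), with bold numbers where the adjusted p is under 0.05. The left matrix is high except for Gadd45g. The right one shows a block of Fos, Junb, Egr1, Btg2 and Ier2 and a smaller one of Jun, Atf3 and Klf6, with r up to 0.538 between the blocks.

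Outside the members, the genes with the most similar pattern were largely of the same class. Among mates (47 mice, log2 CPM), the highest median r with the members was found for Jund (0.592), Socs3 (0.580), Maff (0.557), Ier3 (0.542), Ier5 (0.538), Nfkbiz (0.537), Cxcl1 (0.526), Steap4 (0.518), Bcl3 (0.507) and Fosl2 (0.4995). Jund and Fosl2 are AP-1 subunits, Socs3 and Bcl3 act in cytokine and NF-κB signalling, and Cxcl1 is a chemokine. Over all tested genes the median was -0.00558, and 0.238 marked the highest 5%. Across the 29 line means the most similar genes included Egr2 (0.825), Zfp36 (0.815), Trib1 (0.785), Dusp6 (0.763), Csrnp1 (0.758), Dusp5 (0.753), Thbs1 (0.753), Fosb (0.744) and Ywhaz (0.744). Egr2 and Fosb are paralogs of members, Zfp36 speeds the decay of short-lived mRNAs, and Dusp5 and Dusp6 switch off ERK kinases.

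Other immediate early genes were called in the same lines, in both directions. Higher calls took 9.56% of all genes in IL-519, 10.3% in IL-521, 18.4% in IL-4457 and 14.1% in IL-1513, and the lists below are given beside these shares. Of 20 other immediate early transcription factors that were tested, 10 were called higher in IL-519, 12 in IL-521, 12 in IL-4457 and 9 in IL-1513, while 1 was called lower in IL-521 (Nfil3) and 4 in IL-1513 (Klf10, Hes1, Id3 and Ier5). Their median log2 difference was 0.96, 1.30, 1.44 and 0.79. Nr4a1, an orphan nuclear receptor, was higher by 5.31 in IL-521 and 5.48 in IL-1513 and by 2.62 and 1.48 in IL-519 and IL-4457, whereas Ier5 was higher by 2.67 in IL-4457 and lower by 1.25 in IL-1513. Relb was called in IL-4457 (1.43) and Nfkbiz in IL-519 (2.103). Of 37 other immediate early genes that are not transcription factors, 23, 23, 22 and 15 were called higher and 1, 1, 1 and 2 lower, with medians of 1.00, 1.08, 1.46 and 0.62. Trib1 was higher by 2.83, 3.83 and 2.97 in IL-519, IL-521 and IL-4457, and Gadd45a, a paralog of Gadd45g, by 1.38, 1.94 and 3.40, but Gadd45a was lower by 1.95 in IL-1513. Of 15 other AP-1 and related factors, 5, 5, 8 and 6 were called higher and 2 were lower in IL-4457, with Fosb, Jund and Maff among those of both IL-519 and IL-521.

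Among the kinases and factors upstream of this class, the share called higher stood above that of all genes in IL-521 and IL-4457. It was near it in IL-1513 and below it in IL-519. Of 25 tested, 1 was called higher in IL-519 (Srf), 5 in IL-521 (Srf and Crem among them), 9 in IL-4457 and 4 in IL-1513 (Srf, Creb1, Crem and Map2k1), beside the same shares of all genes, and 1 was lower in IL-519 (Elk3) and 3 in IL-4457 (Mkl2, Mapk9 and Rps6ka1). Srf is serum response factor, which activates Fos and Egr1. The median log2 difference of these 25 genes was -0.0160, 0.0556, 0.165 and 0.110 in IL-519, IL-521, IL-4457 and IL-1513. Over all tested genes it was 0.0195, -0.0103, 0.000407 and -0.00617.

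Markers of other cells were called in some of the high lines. All 5 cholangiocyte markers (Krt19, Krt7, Epcam, Sox9 and Spp1) were called higher in IL-4457, where their summed FPKM was 118.9 to 125.5, against 6.5 to 208.3 in the 23 lines outside the 6 highest. In IL-519, 4 of 6 sinusoidal endothelial markers were called lower (Clec4g, Pecam1, Kdr and Cdh5), with sums of 14.5 and 17.7 against 13.0 to 71.0. Of 4 cycling cell markers, 3 were called higher in IL-519 (Top2a, Ccnb1 and Cdk1), where their sums were 1.66 and 5.46 against 0.54 to 4.17, and 3 lower in IL-1513 (Mki67, Top2a and Ccnb1), with sums of 0.87 and 1.35. Of 6 hepatocyte markers, 3 were called lower in IL-1513 (Alb, Ttr and Serpina1a), with sums of 31610 and 32490 against 17930 to 67540, and 2 higher in IL-4457. Over all genes 4.96% were called lower in IL-519 and 9.76% in IL-1513, and 9.56% and 18.4% higher in IL-519 and IL-4457. Sums of Kupffer cell markers were 32.3 to 84.1 in the 4 lines, with 0 of 6 called (edgeR), against 9.55 to 264, and neutrophil sums were 1.33 to 15.5 against 0.53 to 133.5. No list had a marker at 0 in every mouse. The part of these cells in the members' levels was not tested.

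Most of the expression of Fos and Egr1 came from 1 transcript, and not only where they were high. The main Fos transcript held 98.8% to 99.7% of Fos expression in the 4 mice of IL-519 and IL-521, against a median of 100% over all mice. The main Egr1 transcript held 93.8% to 95.1% in those 4 mice, against a median of 94.8% and a range of 81.8% to 100% over all mice. The shares of a gene with few fragments vary widely, and that of the main Fos transcript went down to 12.49% in a mouse. Jun overlaps BC042782 and Egr1 overlaps Gm17507, each on the opposite strand. The libraries keep the strand, but RSEM was run with default settings, which do not use it, so fragments of such partners cannot be told apart. The estimated counts of Jun were not whole in 48 of 55 mice, as for fragments shared between genes, and those of the other 9 members were whole in all mice. BC042782 had 0.07 to 1.02 FPKM and Gm17507 was listed at 0 in all mice.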

How the data were processed

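Poly(A) RNA of 55 livers was sequenced with a stranded kit. The authors aligned the reads and estimated abundances with RSEM 1.2.18 on genome build mm9 and Ensembl 67, run per mouse. The deposited values used here are expected counts (estimated fragments per gene), TPM, FPKM and, per transcript, its percent of the gene's expression. RSEM's default settings, which do not use strand, were taken to apply. Depth was 20.5 to 33.95 M fragments per mouse.

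Expected counts were rounded and tested with edgeR 4.0.16 (R 4.3.3, TMM, edgeR's expression filter, quasi-likelihood F test) in the 47 mice of 21 lines with at least 2 mice, for any difference among lines and for each line against the mean of the other 20. P-values were adjusted by the Benjamini-Hochberg method over all genes, or over all genes and lines, with a threshold of 0.05. The labels do not say how mates were reared or processed, so p-values measure the spread between these samples. The intraclass correlation came from a one-way analysis of log2(FPKM + 0.1), and fold changes on that scale understate those of low genes. Correlations used log2(FPKM + 0.1) line means (29 lines) or deviations from line means (47 mice), with 100000 permutations and adjustment over 45 pairs. The log2 CPM of similar genes was computed with edgeR. Positions came from an annotation of Ensembl 65 on the same build. Checks on simulated data were run. Python 3.11.15, numpy 2.4.6, pandas 2.3.3, scipy 1.17.1 and matplotlib 3.10.9 were used.

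All members were described. In the other gene lists up to 4 genes per list were named by their median r with the members within lines, along with the 10 most similar genes at each level. Some genes that this rule or a list would name are not reported here. The members and lists were chosen with earlier results of these data known. Alternatives were RLE size factors, other filters, DESeq2 1.42.0, limma 3.58.1 on log2(FPKM + 0.1), other pseudocounts and measures, leaving out each mouse (keeping the dispersion trend of all mice, so that a lone mate is assumed to vary like the others), and leaving out the libraries labelled IL-1052 and IL-2750. Leaving out IL-519 and IL-521, or the 6 highest lines, was chosen after seeing the data.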

Additional observations from a re-analysis of the deposited data

How the results depend on the processing

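All 10 members passed the test among lines (edgeR) under every alternative in which all 10 were tested except 1, and with at least 10 fragments required in every mouse the 8 that remained passed. Without the 6 highest lines, an alternative chosen after seeing the data, 8 passed, calls for single lines went from 51 to 19 (15 higher and 4 lower), the median intraclass correlation from 0.775 to 0.320 and pairs passing across line means from 36 to 11. On ranks turned into normal scores the median intraclass correlation was 0.541. Picking the 6 lines by the members' own levels lowers the spread and the correlations across lines by itself. The cause of these shifts was not tested. With limma on log2(FPKM + 0.1) the calls for single lines were 29 higher and 22 lower, against 35 and 16. With each mouse left out in turn, members passing ranged from 10 to 10, calls for single lines from 48 to 59, the median intraclass correlation from 0.754 to 0.817, pairs across line means from 33 to 38, pairs within lines from 10 to 16, and relations with age, weight or depth from 0 to 0. No paired analysis was possible because the labels give no replicate numbers shared between lines. Fos and Atf3, with medians under 1 FPKM, are set by few fragments in most mice, which limits what can be said of their low end.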

Other observations

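The heat shock genes, a response to misfolded protein that is separate from the immediate early class, were high in 3 of the 4 lines in which the members were highest and only in part in the other. All 10 tested were called higher in IL-521, IL-4457 and IL-1513 (edgeR, against 10.3%, 18.4% and 14.1% of all genes), with a median log2 difference of 1.57, 2.86 and 1.83. In IL-519 there were 4 (Hspa1a, Hspa8, Dnajb1 and Hspe1, against 9.56% of genes), with a median of 0.27. Hspa8, the constitutive chaperone, was higher by 1.51 in IL-519, 1.01 in IL-521, 2.02 in IL-4457 and 1.14 in IL-1513. Hsph1 was higher by 1.496, 3.47 and 2.61 in the last 3 and had -0.23 in IL-519, where it was not called.

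Beside the same shares of all genes (9.56% higher in IL-519, 10.3% in IL-521, 18.4% in IL-4457 and 14.1% in IL-1513), other lists were called as follows. Of 10 genes of the integrated stress and unfolded protein responses, 7 were called higher in IL-4457, against 1 in IL-519 (Atf4), 3 in IL-521 (Atf4, Ddit3 and Trib3) and 3 in IL-1513 (Atf4, Asns and Sesn2, with Xbp1 lower). Chac1 was higher by 3.94 in IL-4457 only among these 4 lines. Of 8 p53 targets, 4 were called higher in IL-519 and 4 in IL-4457 (Cdkn1a, Mdm2, Trp53inp1 and Eda2r in both), 1 in IL-521 and 2 in IL-1513, and Sesn1 was lower in IL-4457. Of 12 glucocorticoid and fasting genes, 4, 1, 6 and 6 were called higher in IL-519, IL-521, IL-4457 and IL-1513, and 3 lower in IL-4457 (Tsc22d3, Tat and Pck1), with Igfbp1 higher by 2.80, 3.57 and 4.17 in IL-519, IL-4457 and IL-1513. Of 11 circadian clock genes, 2, 1, 1 and 0 were called higher in the same order and 2, 0, 2 and 0 lower.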
